A study of Rattus norvegicus with 15 samples.

Results

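The comparison between 1,5-naphthalenediol and 2,7-naphthalenediol asks what the position of the hydroxyl groups changes in the response of rat hepatocytes. It rests on 6 of the 15 arrays of the series, the 3 titled with each compound. The cells were cryopreserved primary hepatocytes of male Wistar rats (spelled Wister in the labels), bought from a supplier, and the labels name no donor. After 24 h of pre-culture they had 24 h with 30 µM of 1,5-naphthalenediol or 30 µM of 2,7-naphthalenediol, and the 3 control arrays had the solvent DMSO for the same 24 h. The other groups of the series, 1-naphthol and naphthalene at 30 µM, had 3 arrays each, and they enter through the shared estimate of the spread and for single levels. Total RNA was hybridised to 1-colour Agilent arrays, and the design describes the arrays of a group as independent experiments, so p-values measure the spread between those. Cultured hepatocytes lack the liver's blood flow and most of its other cells, which limits them as a model.

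Naphthalene is a pair of fused benzene rings. In both diols the hydroxyl groups lie on different rings. In 1,5-naphthalenediol they are at alpha positions, next to the ring junction, and in 2,7-naphthalenediol at beta positions, away from it. Hepatocytes meet such compounds with several inducible programs. The aryl hydrocarbon receptor (AhR) binds flat aromatic ligands and switches on Cyp1a1 and its partners. NRF2 is a transcription factor released when reactive compounds modify its inhibitor KEAP1, and it drives genes for quinone reduction, glutathione transfer and NADPH supply. Heat shock factor answers misfolded protein, ATF4 answers amino acid shortage and other stress, and serum response factor (SRF) with its partners drives immediate early genes such as Egr1.

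Promoter sequences are shown for 4 genes that differed between the diols, since the later results return to them. Each of the 4 holds a match of the motif marked, and windows of other genes were searched as well. They are RefSeq sequences of build GRCr8, from 250 bases before to 50 after the annotated start, printed 5′ to 3′ on the gene's own strand. Capitals mark the motif searched, on both strands: for Gstp1 (chr1:210769656-210769955, minus strand) 1 core of the antioxidant response element, TGACNNNGC, which 12.1% of 33465 rat promoters of that length hold. For Hspb1 (chr12:26432252-26432551, minus strand) they mark 2 heat shock element cores, GAANNTTC or TTCNNGAA, held by 15.9%. For Egr1 (chr18:26736828-26737127, plus strand) and Srf (chr9:21923826-21924125, plus strand) they mark 2 CArG boxes each, the element that SRF binds, held by 1.64%. The Gstp1 window also holds 1 CArG box, left in lower case. None of the marked matches overlapped a match of another searched motif in its window. A match describes the letters and not binding.
Gstp1: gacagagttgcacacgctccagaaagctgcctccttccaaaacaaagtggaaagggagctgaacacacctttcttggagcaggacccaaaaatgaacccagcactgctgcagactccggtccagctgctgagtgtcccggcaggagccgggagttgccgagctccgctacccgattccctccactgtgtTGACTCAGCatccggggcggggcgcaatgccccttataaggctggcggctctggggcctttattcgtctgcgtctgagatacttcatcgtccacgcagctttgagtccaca
Hspb1: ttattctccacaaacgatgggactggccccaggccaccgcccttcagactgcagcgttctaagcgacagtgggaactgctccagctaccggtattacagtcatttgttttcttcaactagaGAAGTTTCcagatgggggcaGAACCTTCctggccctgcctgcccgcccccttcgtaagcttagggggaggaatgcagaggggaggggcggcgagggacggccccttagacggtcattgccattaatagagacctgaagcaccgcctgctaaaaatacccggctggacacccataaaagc
Egr1: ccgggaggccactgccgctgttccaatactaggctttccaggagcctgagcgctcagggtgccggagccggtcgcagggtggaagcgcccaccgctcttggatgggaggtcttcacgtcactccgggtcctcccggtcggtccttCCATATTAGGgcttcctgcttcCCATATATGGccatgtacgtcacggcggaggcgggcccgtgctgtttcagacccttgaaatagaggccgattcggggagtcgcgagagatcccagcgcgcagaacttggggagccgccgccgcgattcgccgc
Srf: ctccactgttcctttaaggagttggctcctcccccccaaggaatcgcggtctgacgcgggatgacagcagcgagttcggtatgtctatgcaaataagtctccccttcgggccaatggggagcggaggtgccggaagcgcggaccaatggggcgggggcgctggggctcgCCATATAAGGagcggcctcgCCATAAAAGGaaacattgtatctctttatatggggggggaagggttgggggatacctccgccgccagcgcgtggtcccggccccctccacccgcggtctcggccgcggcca
The AhR core GCGTG stood in 29.7% of promoters. Among the windows searched it had 3 matches in Ahrr, 2 each in Gstp1, Gsta2, Junb and Srxn1, and 1 each in Nqo1, Stip1, Alas1, Srf and Osgin1. It had 0 in Akr1b8, Hspb1, Egr1 and Slc7a11, so matches stood in windows of genes that differed in either direction. The antioxidant core had 1 match in Gsta2 and 0 in Nqo1, Akr1b8, Slc7a11, Osgin1 and Srxn1. The heat shock core also had 2 matches each in Gsta2 and Osgin1 and 1 in Stip1. The Junb window held 0 CArG boxes.

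All levels below are log2 intensities minus the array's own 75th percentile, so a level of 0 lies at that percentile, and differences are log2 differences of 1,5-naphthalenediol minus 2,7-naphthalenediol ± standard error. Between 57.4% and 61% of gene spots were well above background per array, and 75th percentiles ran from 1718 to 2074 units of intensity. Arrays of a diol correlated at 0.9957 to 0.9978. The third 1,5-naphthalenediol array stood on the second slide with 1-naphthol and naphthalene, while the other 2, all 2,7-naphthalenediol and all DMSO arrays were on the first. The log2 differences between that array and the other 1,5-naphthalenediol arrays had a standard deviation of 0.287 and 0.292, against 0.214 between those on the first slide and 0.221 to 0.226 among the 2,7-naphthalenediol arrays. Main counts are therefore also given without it, as the count without 1,5-naphthalenediol 3. The hepatocyte label held: all 10 hepatocyte markers were well above background on all 1,5-naphthalenediol arrays and 9 of 10, all but Pck1, on all 2,7-naphthalenediol arrays. Their summed level ranged over 8.63 to 8.70 with 1,5-naphthalenediol and 8.68 to 8.71 with 2,7-naphthalenediol, against 8.73 to 8.78 with DMSO. In both diol groups 7 of 10 macrophage markers, among them Cd163, Clec4f and Csf1r, and 7 of 9 lymphocyte markers, among them Ptprc and Cd3e, were not well above background on any array. Other markers were well above background on all arrays of each diol: 3 of 10 for macrophages, 3 of 9 endothelial, 2 of 8 bile duct and 2 of 9 lymphocyte markers. Of 10 stellate cell and fibroblast markers this held for 4 with 1,5-naphthalenediol and 5 with 2,7-naphthalenediol. Signal of such markers was thus not absent. In such bulk samples fewer cells of a type and less RNA per cell cannot be told apart.

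The diols differed at 2914 of 19803 tested genes, 14.7% (limma, Benjamini-Hochberg adjusted p below 0.05), of which 1310 (6.62%) were higher and 1604 (8.1%) lower with 1,5-naphthalenediol. Most of these differences were small: 2415 were under 0.5 in size, 413 lay from 0.5 to 1 and 86 (0.434% of the tested genes) reached 2-fold, 62 of them higher and 24 lower. The median difference over all tested genes was -0.003. Without the third 1,5-naphthalenediol array 2156 genes were called, 1950 of them in the same direction as with it, and without the second 2,7-naphthalenediol array 1823. With replicates 1 and 2 of both diols and the other groups' arrays kept, 1626 were called, and with replicates 1 and 2 of the diols as the only arrays, 8 (3813 at an unadjusted p under 0.05). The comparisons with DMSO, which share the DMSO arrays, called 4386 genes (22.1%) for 1,5-naphthalenediol, 9.41% of the tested genes higher and 12.7% lower, and 2186 (11%) for 2,7-naphthalenediol, 6.2% higher and 4.84% lower. Of these, 167 (0.843%) and 55 (0.278%) reached 2-fold. The 2,7-naphthalenediol count was 732 without 2,7-naphthalenediol 2 and 920 without 2,7-naphthalenediol 3, and 1275, 1220 and 859 without DMSO 1, 2 and 3.

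**Figure D1:**
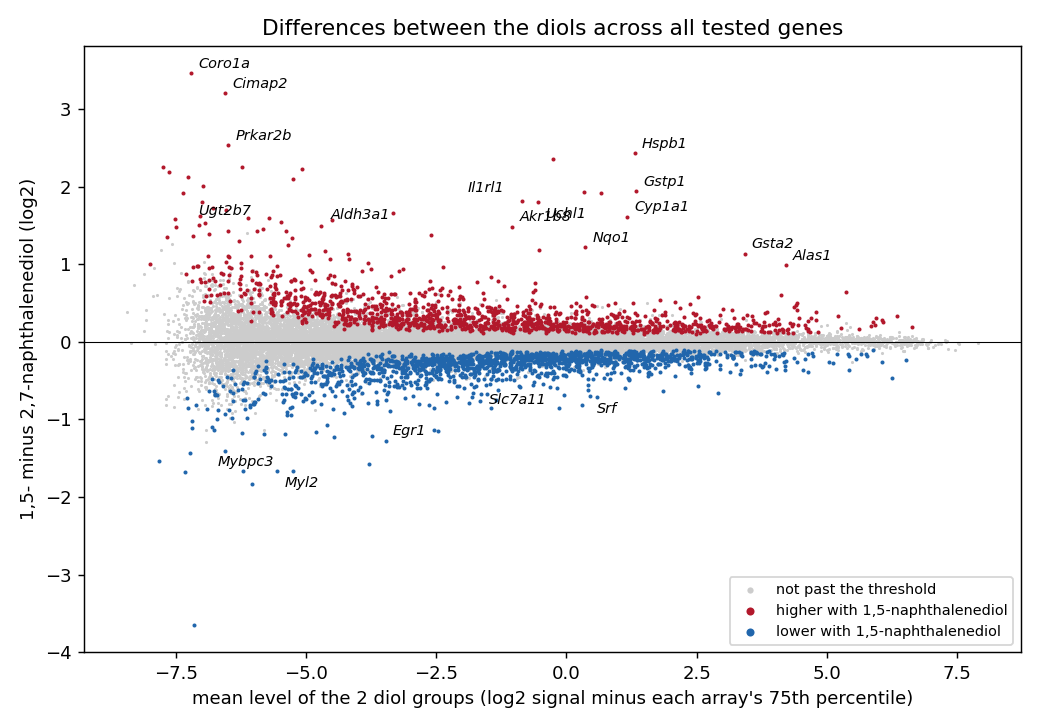
Each point is a tested gene, with the mean level of both diol groups on the x axis and the log2 difference, 1,5- minus 2,7-naphthalenediol, on the y axis. Red and blue points are the 1310 genes higher and the 1604 lower with 1,5-naphthalenediol, and the named genes include Hspb1 at 2.43 and Egr1 at -1.27.

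Of 23 tested glutathione transferases, which couple glutathione to reactive compounds, 6 were higher and 0 lower with 1,5-naphthalenediol, where 6.62% of all genes were higher and 8.1% lower. The list's median was 0.09 beside -0.003 over all genes, and the counts were the same without 1,5-naphthalenediol 3. The shares over all genes are the background of each list count below. Against DMSO they were 9.41% higher and 12.7% lower with 1,5-naphthalenediol, and 6.2% higher and 4.84% lower with 2,7-naphthalenediol. Gstp1, the pi-class transferase, read 2.28, 2.37 and 2.29 on the 1,5-naphthalenediol arrays, against 0.36, 0.34 and 0.43 on the 2,7-naphthalenediol arrays. The groups stood well apart, and the difference was 1.94 ± 0.0423, a 3.83-fold higher signal with 1,5-naphthalenediol (limma adjusted p = 1.23e-10). DMSO lay at -0.03, 0.03 and 0.08, close below the 2,7-naphthalenediol arrays. Gsta2, an alpha-class transferase, read 3.88, 4.0 and 4.09 on the 1,5-naphthalenediol arrays, against 2.70, 2.87 and 3.0 on the 2,7-naphthalenediol arrays. The 2,7-naphthalenediol arrays covered the DMSO range (2.80, 2.83 and 2.77), and the diols differed by 1.13 ± 0.0714 (limma adjusted p = 2.7e-06). Its relatives Gsta5 and Gsta3 were higher by 0.64 ± 0.063 and 0.34 ± 0.0462 (limma adjusted p = 7.16e-05 and 0.000653). Gsta2, Gsta3 and Gsta5 are close in sequence, so their probes may share targets.

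Of 20 tested UDP-glucuronosyltransferases and sulfotransferases, which attach sugar acid or sulfate, 1 was higher, 0 were lower and 19 were not called (median 0.05). That gene, the glucuronosyltransferase Ugt2b7, read -4.93, -5.39 and -4.98 on the 1,5-naphthalenediol arrays, against -6.71, -6.62 and -6.32 on the 2,7-naphthalenediol arrays. It differed by 1.45 ± 0.164 (limma adjusted p = 0.0002) and was low in DMSO as well, at -6.56, -6.65 and -6.61. Members of this family share sequence, so the probe may also read a relative.

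Of 9 tested AhR targets 6 were higher and 0 lower with 1,5-naphthalenediol (median 0.23). The 6 included Ahr, the receptor's own gene, and Nfe2l2, the gene of NRF2. The calls of both ended without at least 1 diol array, as did that of Ahrr below. Those of Cyp1a1 and Aldh3a1 held without any single diol array. The higher count was 4 without 1,5-naphthalenediol 1 or 3 and 3 without 2,7-naphthalenediol 1, and with the arrays of the first slide alone 4 were higher and 1 lower. Cyp1a1, the oxidase that defines AhR activity, read 2.08, 1.75 and 2.09 on the 1,5-naphthalenediol arrays, against 0.26, 0.24 and 0.60 on the 2,7-naphthalenediol arrays. It was 3.05-fold higher (1.61 ± 0.121, limma adjusted p = 9.6e-06), and the DMSO arrays at -0.39, -0.16 and -0.20 lay below both diols. Aldh3a1, an aldehyde dehydrogenase under AhR control, read -3.85, -3.89 and -4.16 on the 1,5-naphthalenediol arrays, against -5.27, -5.67 and -5.43 on the 2,7-naphthalenediol arrays, and the diols differed by 1.49 ± 0.105 (limma adjusted p = 6.7e-06). In DMSO Aldh3a1 was not well above background on any array (-7.58, -7.56 and -7.51), and these measured levels lay below every array of both diols. The 1-naphthol arrays, all on the second slide, read -3.23, -3.33 and -3.34 for Aldh3a1 and 2.30, 2.02 and 2.09 for Cyp1a1.

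The AhR pattern did not extend to every member. Cyp1a2, a close relative of Cyp1a1 under the same receptor, read 0.05, 0.06 and 0.17 on the 1,5-naphthalenediol arrays, against 0.28, 0.28 and 0.30 on the 2,7-naphthalenediol arrays, and its difference of -0.19 ± 0.0631 did not pass the threshold (limma adjusted p = 0.0644, 95% interval -0.33 to -0.05). Cyp1a2 passed it as lower with the arrays of the first slide alone (-0.23, adjusted p = 0.0201) and with the mean of its probes (-0.16, adjusted p = 0.0393). The AhR repressor Ahrr read -5.57, -6.17 and -5.65 on the 1,5-naphthalenediol arrays, against -8.00, -6.82 and -6.85 on the 2,7-naphthalenediol arrays. It was not well above background on any 2,7-naphthalenediol array. By the bound defined with the processing its signal was at least 2.18-fold higher (measured 1.43 ± 0.394, limma adjusted p = 0.0306). This call ended without 1,5-naphthalenediol 1 (adjusted p = 0.0807), 1,5-naphthalenediol 3 (0.0858) or 2,7-naphthalenediol 1 (0.11).

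**Figure D2:**
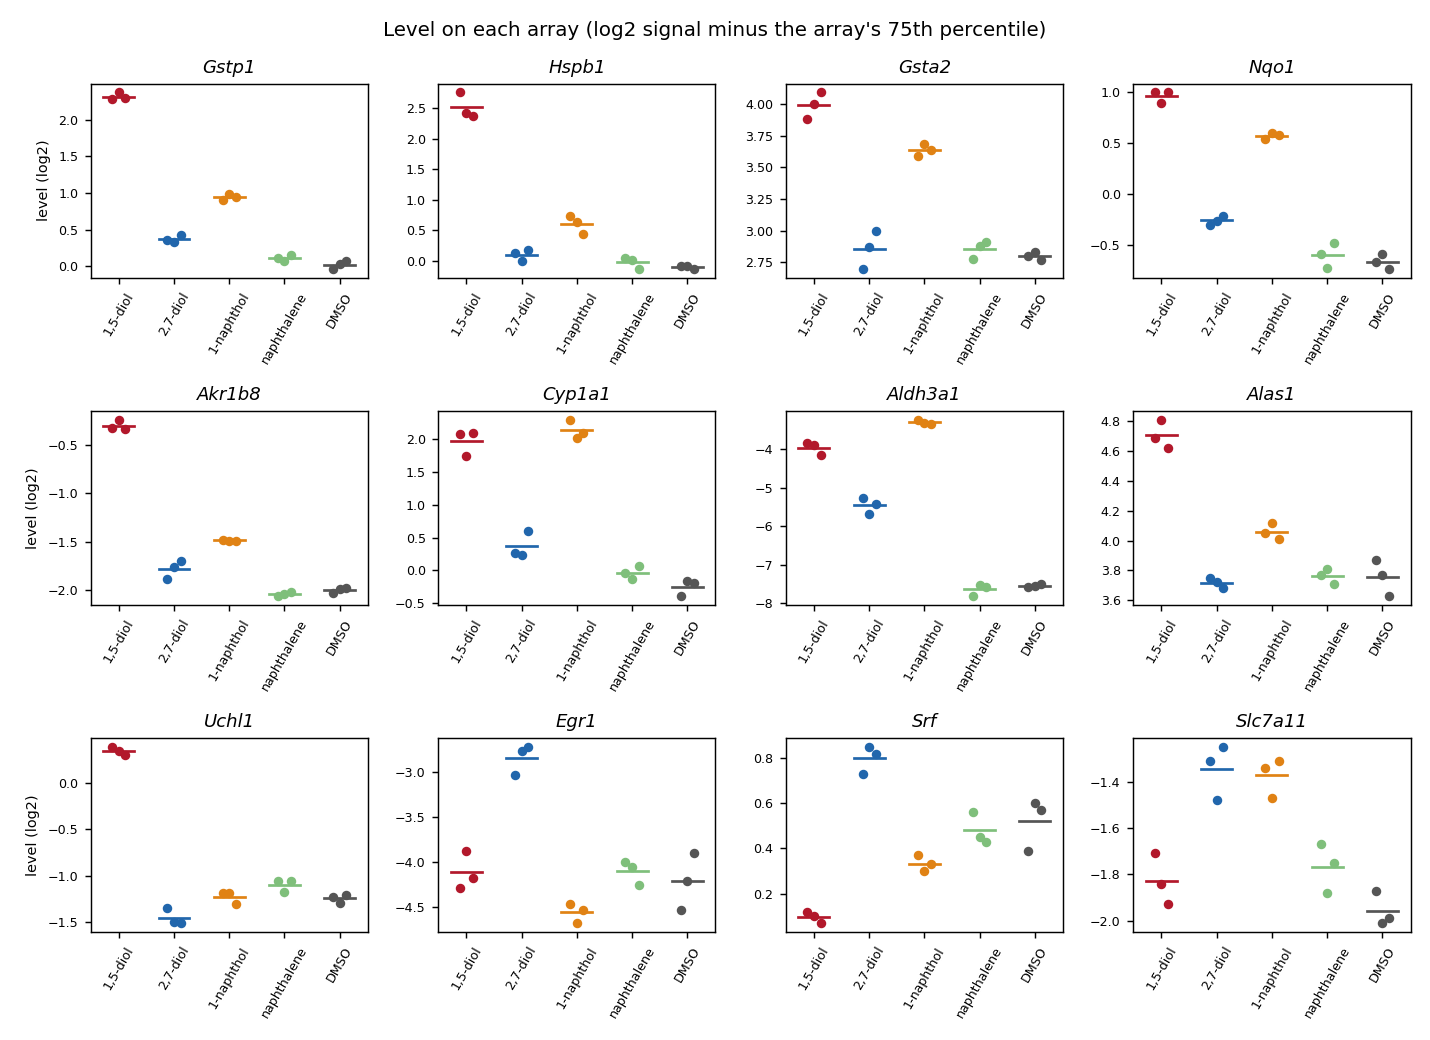
Levels of 12 genes on each of the 15 arrays (log2 intensity minus the array's 75th percentile, each panel with its own axis), with points for replicates 1 to 3 from left to right and lines for group means. The 3 arrays of 1,5-naphthalenediol lie above those of 2,7-naphthalenediol for the first 9 genes and below them for Egr1, Srf and the brighter probe of Slc7a11, whose other probe gave 1.01. Over all tested genes 31.9% did not overlap between the diols.

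The NRF2 targets were called in both directions, and several of the lower calls ended without a single array. Of 36 tested NRF2 target and redox genes 14 were higher and 7 lower with 1,5-naphthalenediol (median 0.07), and 11 and 6 without 1,5-naphthalenediol 3. The higher ones were led by enzymes that reduce quinones and aldehydes. Akr1b8, an aldo-keto reductase, read -0.33, -0.24 and -0.34 on the 1,5-naphthalenediol arrays, against -1.89, -1.76 and -1.70 on the 2,7-naphthalenediol arrays. It was 2.79-fold higher (1.48 ± 0.0474, limma adjusted p = 2.94e-09), with DMSO at -2.03, -1.99 and -1.98. Nqo1, the quinone reductase that both NRF2 and AhR drive, read 1.00, 0.90 and 1.00 on the 1,5-naphthalenediol arrays, against -0.30, -0.26 and -0.21 on the 2,7-naphthalenediol arrays. DMSO lay lower still, at -0.66, -0.59 and -0.73, and the diols differed by 1.22 ± 0.0595 (limma adjusted p = 2.28e-07). Akr7a3, an aflatoxin aldehyde reductase, was higher by 0.49 ± 0.0446 (limma adjusted p = 3.84e-05).

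The lower NRF2 genes included a cystine importer and stress regulators. Osgin1, an oxidative stress-induced growth inhibitor, read 0.24, 0.22 and 0.06 on the 1,5-naphthalenediol arrays, against 0.67, 0.63 and 0.67 on the 2,7-naphthalenediol arrays. DMSO stood between the diols at 0.37, 0.40 and 0.48, and the difference was -0.48 ± 0.0657 (limma adjusted p = 0.00065). Slc7a11, the cystine importer, read -1.71, -1.84 and -1.93 on the 1,5-naphthalenediol arrays, against -1.31, -1.48 and -1.25 on the 2,7-naphthalenediol arrays by its brighter probe, a difference of -0.48 ± 0.0786 (limma adjusted p = 0.00202). Its 2 probes disagreed, with -0.48 for the brighter and 1.01 for the dimmer, so their mean gave 0.27 (adjusted p = 0.0122) and the direction for this gene rests on the choice of probe. Trib3, a pseudokinase that ATF4 also drives, was lower, at -0.38 ± 0.0757 (limma adjusted p = 0.0061). The heme oxygenase Hmox1 differed by -0.25 ± 0.0687 (limma adjusted p = 0.0287), and this call ended without 1,5-naphthalenediol 2 (adjusted p = 0.0852) or 3 (0.0789) and without 2,7-naphthalenediol 1 (0.0711) or 3 (0.103). Srxn1, Mafg and Sqstm1 were also among the lower genes. Their calls too ended without 1,5-naphthalenediol 2 (limma adjusted p = 0.0893, 0.079 and 0.0578). The count of 7 lower genes was likewise 3 without 1,5-naphthalenediol 2 and 4 without 2,7-naphthalenediol 3, and that of 14 higher genes was 9 without 2,7-naphthalenediol 2.

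Not every NRF2 gene separated the diols. Gclc, the catalytic subunit of the enzyme that starts glutathione synthesis, differed by 0.04 ± 0.0549 with an interval of -0.08 to 0.16 (limma adjusted p = 0.663). The thioredoxin reductase Txnrd1 differed by -0.08 ± 0.0746, interval -0.24 to 0.08 (limma adjusted p = 0.537). Against DMSO, which both comparisons share, 11 genes of the list were higher and 2 lower with 1,5-naphthalenediol, and 12 were higher and 0 lower with 2,7-naphthalenediol. The 2 lower became 3 without 1,5-naphthalenediol 1, 1 without 1,5-naphthalenediol 2 or 3 or DMSO 1 or 2, and 0 without DMSO 3.

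**Figure D3:**
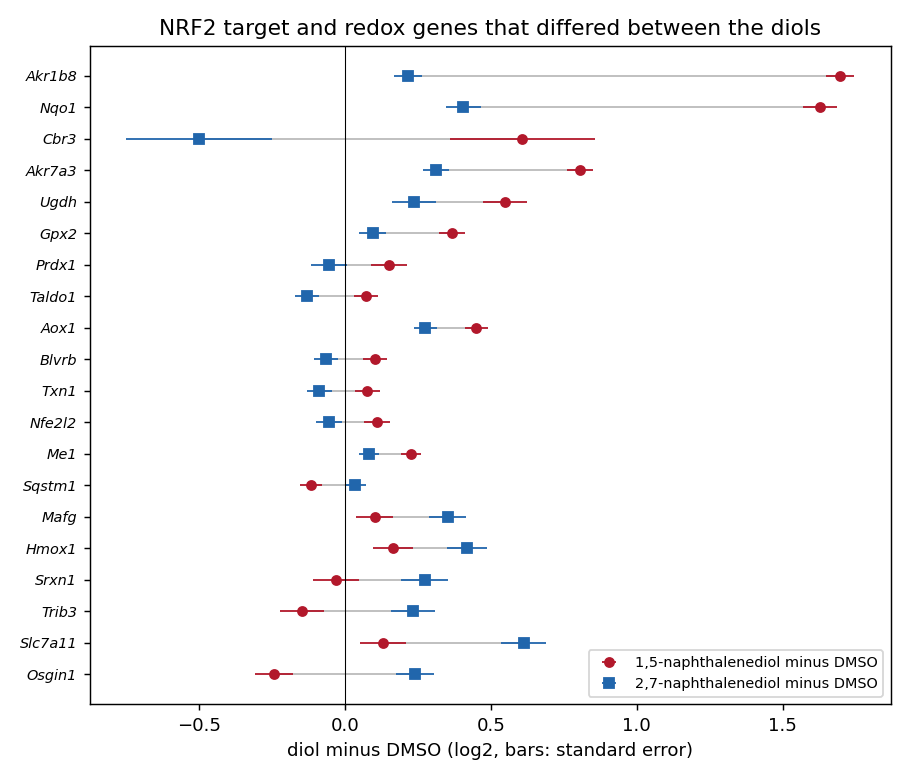
NRF2 target and redox genes that differed between the diols (20 of 21 drawn), with the log2 difference from DMSO on the x axis (points, bars are standard errors) for 1,5-naphthalenediol (red circles) and 2,7-naphthalenediol (blue squares), which share the DMSO arrays. Red lies right of blue for the upper 13 genes, from Akr1b8 (1.70 and 0.22) down, and left of blue for the lower 7, ending with Osgin1 (-0.24 and 0.24).

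Of 26 tested targets of CAR and PXR, nuclear receptors that sense drugs, 11 were higher and 2 lower with 1,5-naphthalenediol (median 0.21). The higher count was 7 without 1,5-naphthalenediol 3, 5 without 1,5-naphthalenediol 2 or 2,7-naphthalenediol 1 and 6 without 2,7-naphthalenediol 2, and the lower count was 0 or 1 without any single diol array. Of 21 genes of heme and iron handling 4 were higher and 1 lower (median 0.01), 23.8% called beside 14.7% of all genes. The higher count was 2 without 1,5-naphthalenediol 2 or 2,7-naphthalenediol 2 or 3, and the lower count was 0 without 1,5-naphthalenediol 2 or 3 or 2,7-naphthalenediol 1 or 3. Alas1, the rate-limiting enzyme of heme synthesis and a supplier of heme to cytochromes P450, read 4.69, 4.81 and 4.62 on the 1,5-naphthalenediol arrays, against 3.75, 3.72 and 3.68 on the 2,7-naphthalenediol arrays. The 2,7-naphthalenediol arrays lay inside the DMSO range (3.87, 3.77 and 3.63), and the difference was 0.99 ± 0.0653, 1.98-fold (limma adjusted p = 3.95e-06). Cyp2b3, a P450 of the CYP2B family, was higher by 0.49 ± 0.0484 and the CAR gene Nr1i3 itself by 0.55 ± 0.093 (limma adjusted p = 7.61e-05 and 0.00263). Its relative Cyp2b2 was tested and not called between the diols. Cyp3a2, a PXR-responsive P450, was higher by 0.47 ± 0.102 (limma adjusted p = 0.00967), whereas Cyp3a23-3a1 differed by 0.13 ± 0.0704, interval -0.03 to 0.28 (limma adjusted p = 0.27). The Cyp3a genes are near copies of each other and their probes may not tell them apart. Tfrc, the transferrin receptor, was higher by 0.37 ± 0.0526 (limma adjusted p = 0.000895).

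Hspb1, a small heat shock protein that holds unfolding proteins, showed the largest difference of the key genes. It read 2.76, 2.43 and 2.38 on the 1,5-naphthalenediol arrays, against 0.13, -0.01 and 0.17 on the 2,7-naphthalenediol arrays. Every 1,5-naphthalenediol array was far above every other one, and the 2.43 ± 0.0996 difference is 5.39-fold (limma adjusted p = 3.91e-08). DMSO stood at -0.08, -0.08 and -0.13, and 1-naphthol, on the second slide, at 0.74, 0.64 and 0.44. Of the 20 tested members of the heat shock list 8 were higher and 3 lower (median 0.17), 8 and 2 without 1,5-naphthalenediol 3. Stip1, which hands clients between HSP70 and HSP90, read -0.15, -0.21 and -0.17 on the 1,5-naphthalenediol arrays, against -0.52, -0.57 and -0.46 on the 2,7-naphthalenediol arrays, a difference of 0.34 ± 0.0434 (limma adjusted p = 0.000411). The mitochondrial chaperonin subunit Hspe1 was higher by 0.31 ± 0.0425 and the lens and muscle small heat shock protein Cryab by 0.33 ± 0.0479 (limma adjusted p = 0.000707 and 0.000964). The constitutive HSP70 gene Hspa8 went the other way, at 6.42, 6.4 and 6.38 on the 1,5-naphthalenediol arrays, against 6.65, 6.63 and 6.63 on the 2,7-naphthalenediol arrays. It was lower, at -0.24 ± 0.0316, as was the small heat shock protein Hspb8 at -0.33 ± 0.0514 (limma adjusted p = 0.000589 and 0.00157).

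Other protein quality genes differed in part. Of 31 tested proteasome subunits 14 were higher and 0 lower with 1,5-naphthalenediol (median 0.13), led by the core subunit Psmb3 at 0.38 ± 0.048 and the lid deubiquitinase Psmd14 at 0.32 ± 0.053 (limma adjusted p = 0.000429 and 0.00219). The count was 12 without 1,5-naphthalenediol 3, 9 without 1,5-naphthalenediol 1 or 2,7-naphthalenediol 1, 7 without 1,5-naphthalenediol 2 and 6 without 2,7-naphthalenediol 2. Of 24 endoplasmic reticulum chaperone and unfolded protein response genes 0 were higher, 1 was lower and 23 were not called by limma (median -0.04, 6 at an unadjusted p under 0.05). The lower count was 0 without 1,5-naphthalenediol 2 or 3 or 2,7-naphthalenediol 1 or 2. Herpud1, which serves degradation from that compartment, differed by 0.04 ± 0.055, interval -0.08 to 0.16 (limma adjusted p = 0.698). Against DMSO Herpud1 was higher with each diol, by 0.39 with 1,5-naphthalenediol and 0.35 with 2,7-naphthalenediol (limma adjusted p = 0.000459 and 0.00386).

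**Figure D4:**
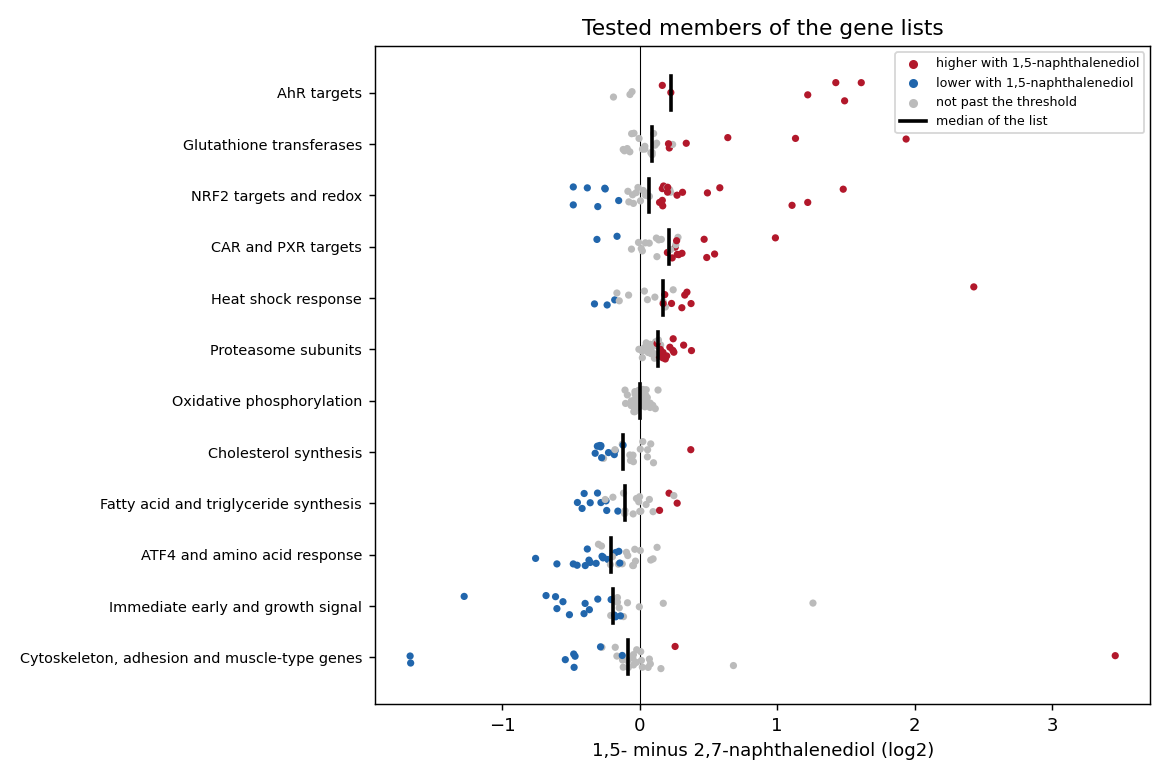
Each point is a tested member of a gene list, placed by its log2 difference, 1,5- minus 2,7-naphthalenediol, red where it was higher, blue where it was lower and grey where it was not called, with a black bar at the list's median. The medians run from -0.21 for the ATF4 list to 0.23 for the AhR list, and all 42 oxidative phosphorylation genes lie close to 0.

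Immediate early genes, which growth and stress signals switch on within minutes in many cells, were lower with 1,5-naphthalenediol at 14 of 24 tested members and higher at 0 (median -0.20). The counts were the same without 1,5-naphthalenediol 3, and over left-out arrays the lowest was 11. The highest difference of a tested member was 1.26 and was not called (0 higher at an unadjusted p under 0.05). Egr1, a zinc finger transcription factor, read -4.29, -3.88 and -4.18 on the 1,5-naphthalenediol arrays, against -3.03, -2.77 and -2.72 on the 2,7-naphthalenediol arrays. The groups did not overlap, and the difference was -1.27 ± 0.154 (limma adjusted p = 0.000293). DMSO stood at -4.54, -4.21 and -3.90, overlapping 1,5-naphthalenediol, and 2,7-naphthalenediol was higher than DMSO by 1.38 (limma adjusted p = 0.000985). Srf, which encodes the factor that binds CArG boxes, read 0.12, 0.10 and 0.07 on the 1,5-naphthalenediol arrays, against 0.73, 0.85 and 0.82 on the 2,7-naphthalenediol arrays. Binding to the matches capitalised above was not tested. DMSO lay between the diols, at 0.39, 0.60 and 0.57. Srf was lower with 1,5- than with 2,7-naphthalenediol at -0.70 ± 0.0578 (limma adjusted p = 1.79e-05), lower than DMSO with 1,5-naphthalenediol (-0.43, adjusted p = 0.000376) and higher than DMSO with 2,7-naphthalenediol (0.28, adjusted p = 0.0135). The last call ended without 2,7-naphthalenediol 2 (adjusted p = 0.0591).

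The nuclear receptor Nr4a1 was lower, at -0.68 ± 0.0857 and the AP-1 subunit Junb at -0.61 ± 0.0689 (limma adjusted p = 0.000411 and 0.000195). Klf10, a TGF-beta-induced zinc finger factor, read 0.19, 0.19 and 0.01 on the 1,5-naphthalenediol arrays, against 0.66, 0.74 and 0.66 on the 2,7-naphthalenediol arrays. The DMSO arrays lay higher still (0.85, 0.86 and 0.90), and Klf10 was lower with 1,5- than with 2,7-naphthalenediol at -0.56 ± 0.0529 (limma adjusted p = 5.41e-05). Of the immediate early list, against the shared DMSO arrays, 2 were higher and 7 lower with 1,5-naphthalenediol, while 8 were higher and 1 lower with 2,7-naphthalenediol. With 1,5-naphthalenediol the 2 higher became 1 without 1,5-naphthalenediol 1 or 2 and 0 without DMSO 1. With 2,7-naphthalenediol the 8 higher became 4 without 2,7-naphthalenediol 2 and 5 without 2,7-naphthalenediol 3, and the 1 lower became 0 without any single array.

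Of 32 tested genes of the ATF4 and amino acid response 16 were lower and 0 higher (median -0.21), 14 lower without 1,5-naphthalenediol 3 and 8 with the arrays of the first slide alone. With the mean of each gene's probes 15 were lower and 1 was higher, and the counts were the same with another background correction (normexp). Atf3, a stress factor that both lists hold, read 0.72, 0.80 and 0.93 on the 1,5-naphthalenediol arrays, against 1.35, 1.49 and 1.41 on the 2,7-naphthalenediol arrays, and it was lower, at -0.60 ± 0.0823 (limma adjusted p = 0.00067). Asns, which makes asparagine and is a standard ATF4 target, read 2.41, 2.37 and 2.41 on the 1,5-naphthalenediol arrays, against 2.68, 2.65 and 2.66 on the 2,7-naphthalenediol arrays. The arrays within each group lay close together, and the small difference of -0.27 ± 0.0335 was called (limma adjusted p = 0.000411). Nupr1, a stress-induced nuclear protein, and Mthfd2, a mitochondrial folate enzyme, were lower, at -0.36 ± 0.0588 and -0.27 ± 0.0527 (limma adjusted p = 0.00207 and 0.00522). Ppp1r15a, which ends the translational arrest upstream of ATF4, was lower, at -0.40 ± 0.0588 (limma adjusted p = 0.00112). Its level with 1,5-naphthalenediol was -0.04 from DMSO, which did not pass the threshold (limma adjusted p = 0.65), and 2,7-naphthalenediol was higher than DMSO by 0.35 (limma adjusted p = 0.00519). For Asns the corresponding values were -0.33 (limma adjusted p = 6.22e-05) and -0.06 (adjusted p = 0.263). Asns thus lay below DMSO with 1,5-naphthalenediol, and Ppp1r15a above it with 2,7-naphthalenediol.

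**Figure D5:**
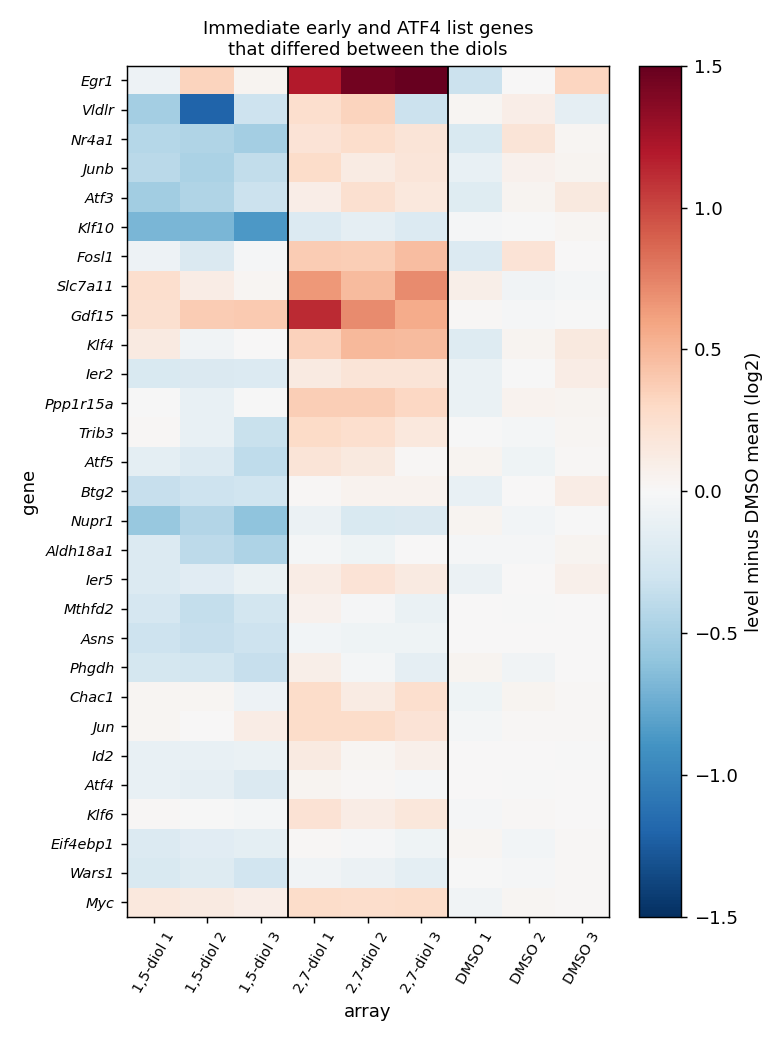
Levels of the 29 called genes of the immediate early and ATF4 lists on the arrays of 1,5-naphthalenediol, 2,7-naphthalenediol and DMSO, as the log2 level minus the gene's DMSO mean (red above, blue below). Rows are ordered by the difference between the diols, with Egr1 at the top (-1.27). By each gene's brightest probe, the 2,7-naphthalenediol mean lies above the 1,5-naphthalenediol mean in each row.

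Of 25 cholesterol synthesis genes 10 were lower and 1 higher with 1,5-naphthalenediol (median -0.12). The counts were 8 and 1 without 1,5-naphthalenediol 3, 6 and 0 without 2,7-naphthalenediol 1, and the higher count was also 0 without 1,5-naphthalenediol 1 or 2 or 2,7-naphthalenediol 3. Hmgcs1, which makes the precursor of mevalonate, read 3.59, 3.67 and 3.55 on the 1,5-naphthalenediol arrays, against 3.92, 4.01 and 3.86 on the 2,7-naphthalenediol arrays, and DMSO was higher than both at 4.19, 4.11 and 4.13. The diols differed by -0.32 ± 0.0485 (limma adjusted p = 0.00118). Fdps, the farnesyl diphosphate synthase, and Sqle, the squalene epoxidase, were lower, at -0.31 ± 0.0405 and -0.28 ± 0.0376 (limma adjusted p = 0.000549 and 0.000585). Acly, which supplies acetyl-CoA for fat and sterol synthesis, was lower, at -0.36 ± 0.0621 (limma adjusted p = 0.00286). Among 27 genes of fatty acid and triglyceride synthesis 9 were lower and 3 higher (median -0.11), and the elongases Elovl2 and Elovl6 were higher by 0.21 ± 0.0447 and 0.27 ± 0.056 (limma adjusted p = 0.00787 and 0.00712). The counts were 8 and 3 without 1,5-naphthalenediol 3, and with the arrays of the first slide alone 2 were lower and 2 higher.

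Of 27 tested cell cycle genes 9 were higher and 4 lower with 1,5-naphthalenediol (median 0.12). The higher count was 7 without 1,5-naphthalenediol 3 and 5 without 2,7-naphthalenediol 2, and the lower one 2 without 1,5-naphthalenediol 2 or 2,7-naphthalenediol 3. The licensing factors of DNA replication Mcm2, Mcm3, Mcm4 and Mcm6 were higher by 0.36 ± 0.0447, 0.46 ± 0.0644, 0.35 ± 0.0667 and 0.37 ± 0.0723, and the G1 cyclin Ccne1 by 0.37 ± 0.0524 (limma adjusted p = 0.000363, 0.000781, 0.0048, 0.00554 and 0.000842). The other probe of Mcm3 gave 0.05. Mcm2 read -0.04, 0.08 and 0.06 on the 1,5-naphthalenediol arrays, against -0.36, -0.36 and -0.28 on the 2,7-naphthalenediol arrays, with no overlap. The mitotic cyclin Ccnb2 read -4.76, -4.85 and -4.54 on the 1,5-naphthalenediol arrays, against -4.20, -4.25 and -4.01 on the 2,7-naphthalenediol arrays, and it was lower, at -0.57 ± 0.0958 (limma adjusted p = 0.00244). The proliferation marker Mki67 was lower, at -0.36 ± 0.0645, and Ube2c, no member of the list, which feeds mitotic proteins to the proteasome, at -0.90 ± 0.143 (limma adjusted p = 0.00346 and 0.00168).

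Genes outside these lists gave several of the largest differences. Uchl1, a ubiquitin hydrolase best known from neurons, read 0.39, 0.34 and 0.30 on the 1,5-naphthalenediol arrays, against -1.35, -1.5 and -1.51 on the 2,7-naphthalenediol arrays. It was 3.48-fold higher (1.80 ± 0.0553, limma adjusted p = 2.25e-09), and DMSO at -1.23, -1.29 and -1.21 lay just above 2,7-naphthalenediol. Uchl1 and Gstp1 were the genes with a symbol among the 8 called with replicates 1 and 2 of the diols alone (limma adjusted p = 0.0478 and 0.0339). Il1rl1, the receptor of interleukin-33, read -0.03, 0.04 and 0.16 on the 1,5-naphthalenediol arrays, against -1.69, -2.0 and -1.60 on the 2,7-naphthalenediol arrays, a difference of 1.82 ± 0.163 (limma adjusted p = 3.63e-05). The cysteine protease inhibitor Cst6 and the SH3-domain gene Sh3tc1 were higher by 1.57 ± 0.0685 and 2.23 ± 0.215 (limma adjusted p = 7.25e-08 and 6.31e-05).

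Some of the largest differences were in genes near background. Coro1a, an actin-binding protein of white blood cells, read -5.92, -5.42 and -5.13 on the 1,5-naphthalenediol arrays, against -9.19, -8.85 and -8.80 on the 2,7-naphthalenediol arrays. It was not well above background with 2,7-naphthalenediol, so its signal was at least 2.71-fold higher with 1,5-naphthalenediol (measured 3.46 ± 0.348, limma adjusted p = 8.44e-05). Coro1a was dim in the other groups too, with DMSO at -8.53, -7.55 and -8.90. It passed the filter on dim probes through the 1,5-naphthalenediol arrays, where it was high, so its p-value is not separate support. The white blood cell marker Ptprc was not well above background on any array of either diol. The summed level of macrophage markers was 0.89 to 0.94 with 1,5-naphthalenediol and 0.68 to 0.81 with 2,7-naphthalenediol, against 0.59 to 0.72 with DMSO, and its part in these results was not tested. Cimap2, a cilium microtubule protein, and Prkar2b, which restrains protein kinase A, were likewise at least 3.93-fold and 3.24-fold higher (measured 3.20 ± 0.271 and 2.53 ± 0.519, limma adjusted p = 2.28e-05 and 0.00703). The groups that carried both genes through the filter on dim probes are not given here. Their p-values are therefore not taken as separate support either. Of the 62 genes at least 2-fold higher, 31 missed the background threshold on at least 1 array of 2,7-naphthalenediol, and of the 24 lower ones 14 missed it on at least 1 array of 1,5-naphthalenediol.

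Of 31 tested cytoskeleton, adhesion and muscle-type genes 8 were lower and 2 higher with 1,5-naphthalenediol (median -0.08), the same counts as without 1,5-naphthalenediol 3. Coro1a, which passed the filter through the 1,5-naphthalenediol arrays, is one of the higher genes. Myl2, a myosin light chain of slow and heart muscle, read -6.54, -6.20 and -6.43 on the 1,5-naphthalenediol arrays, against -4.71, -4.73 and -4.75 on the 2,7-naphthalenediol arrays, with DMSO at -4.82, -4.52 and -4.42. The 1,5-naphthalenediol arrays were the lowest, and the difference was -1.66 ± 0.149 (limma adjusted p = 3.65e-05). Fbxo32, a ubiquitin ligase of muscle wasting, was lower, at -1.22 ± 0.142, and the intermediate filament gene Vim at -0.48 ± 0.0851 (limma adjusted p = 0.000227 and 0.00334). The smooth muscle genes Tagln and Myl9 were lower, at -0.48 ± 0.103 and -0.54 ± 0.118 (limma adjusted p = 0.00934 and 0.0101). Of 5 tested stellate cell and fibroblast markers 0 were called by limma (0 at an unadjusted p under 0.05), and the summed level of that list was -2.03 to -1.88 with 1,5-naphthalenediol and -2.03 to -1.59 with 2,7-naphthalenediol. Its part in these differences was not tested.

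Of 42 tested oxidative phosphorylation genes 0 were called in either direction by limma (median 0.00, 2 at an unadjusted p under 0.05), and 1 was higher without 1,5-naphthalenediol 1. Their differences ran from -0.11 to 0.13. Among 30 hepatocyte function genes 3 were higher and 5 lower (median 0.00), 26.7% called beside 14.7% of all genes. The lower count was 2 without 1,5-naphthalenediol 3 or 2,7-naphthalenediol 1 and 3 without 2,7-naphthalenediol 2. Tat, the tyrosine aminotransferase, and Cps1, the first enzyme of the urea cycle, were higher by 0.47 ± 0.083 and 0.43 ± 0.0999 (limma adjusted p = 0.00334 and 0.0133). The metallothioneins Mt1 and Mt2A, which bind zinc and copper, were higher by 0.19 ± 0.0387 and 0.25 ± 0.0428, and the zinc importer Slc39a10 by 0.58 ± 0.103 (limma adjusted p = 0.00619, 0.00243 and 0.00325). With the arrays of the first slide alone the call of Mt1 ended (adjusted p = 0.068). Of 30 key genes 25 were tested, of which 12 were higher, 8 lower and 5 not called, and Tiparp, Gclm, Cyp2b1, Cyp7a1 and Hspa1b were not analysed here.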

How the data were processed

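Each of 15 RNA samples of rat primary hepatocytes was read on one 1-colour Agilent array. The authors deposited 1 processed intensity per spot, made with Feature Extraction 10.7.1.1, background-subtracted and detrended within the array but, per the file headers, not scaled between arrays. The headers name build rn4, so no gene coordinates come from them. Groups follow the sample titles.

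Control spots and spots flagged as outliers (250 to 354 per array) were left out. Intensities were put on the log2 scale, each array's 75th percentile over its 58717 gene spots was subtracted, and spots of a probe were averaged. Of 45598 probes 21229 matched a single symbol through their accession in the RefSeq gene table (GRCr8). A probe was kept if its flag put it well above background in 3 of 3 arrays of any group (23562 probes), 7 with missing values were dropped, and the brightest probe stood for a gene, giving 19803 genes. A fold is a lower bound where the lower group is not well above background: each dim array counts at the higher of its own signal and its lowest signal well above background. Such a bound takes no account of the standard error, and a probe's own background limit can lie above that lowest signal.

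The main test was limma 3.58.1 (R 4.3.3) with 5 group means over 15 arrays, moderated statistics and Benjamini-Hochberg adjustment over all genes, called below 0.05, with intervals at 95%. Signal over background and 3 arrays a group limit the precision. Replicate numbers did not pair the diols: residual correlations of same-numbered arrays were -0.082, 0.007 and -0.034. Alternatives changed the scaling, background, probe choice, filter, slide, block and arrays. The normexp alternative used median spot signals, since no mean signals were used here.

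Members, gene lists and the naming rule were chosen with earlier results of these data known. Named are 30 key genes, the 15 highest and 15 lowest differences also called without the third 1,5-naphthalenediol array (symbols starting with LOC, RGD or Ab left out), up to 3 called members per list and direction, and up to 8 genes each that moved oppositely against DMSO or further from DMSO with 2,7-naphthalenediol. Other list members named in the text were chosen after their values were seen. Of the 25 pathway lists, those without a count in the text are given among the other observations. 1 member of the NRF2 list is counted but not reported here by name.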

Additional observations from a re-analysis of the deposited data

How the results depend on the processing

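Depth here is signal over background, so differences of dim genes are bounds. Between the diols 2914 genes were called. The count was 1375 with no filter on dim probes (38995 tested), 1593 on the arrays of slide 1 alone, 1136 in a fit of both diol groups alone and 8 on replicates 1 and 2 of both alone (3813 at an unadjusted p under 0.05). It was 1626 with those replicates and the other groups kept, a setting chosen after seeing the data. It was 2505 with normexp background, 3020 after quantile normalization, 2453 with median scaling and 2156 with the slide as a fixed block. Only the 1,5-naphthalenediol group spans both slides, so between the diols that block gave the same 2156 as leaving out 1,5-naphthalenediol 3. It is no separate check. Leaving out 1 array gave 1823 (without 2,7-naphthalenediol 2) to 2625. With a replicate block it was 2702. For 1,5-naphthalenediol minus DMSO, 4386 became 2422 with no filter, 2362 with both groups alone, 87 on replicates 1 and 2 alone and 3002 to 4381 over left-out arrays (4093 with a replicate block). For 2,7-naphthalenediol minus DMSO, 2186 became 519 with no filter, 1031 with both groups alone and 0 on replicates 1 and 2 alone (limma, 3249 at an unadjusted p under 0.05), and 732 to 1614 over left-out arrays (1872 with a replicate block). The fits of fewer arrays have fewer degrees of freedom, and otherwise the cause was not tested. The fit of 1 replicate fewer pools the spread over all groups. Of 139 tested genes that the naming rule picks 134 were called, 103 of them under each left-out array, and 31 lost the call without at least 1. The sentences mostly give genes whose call held, and Ahrr, Hmox1, Srxn1, Mafg and Sqstm1 are among the exceptions. The 1 that reversed was Slc7a11, at 0.27 (adjusted p = 0.0122) under the mean of its probes.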

Other observations

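Clock, inflammatory and sugar genes were also measured. Of 14 tested circadian clock genes 1 was higher and 4 lower with 1,5- than with 2,7-naphthalenediol (median 0.05, with 14.7% of all genes called and a median of -0.003). The clock repressor Cry1 read -0.67, -0.70 and -0.80 on the 1,5-naphthalenediol arrays, against -1.20, -1.24 and -1.12 on the 2,7-naphthalenediol arrays, above DMSO (-1.47, -1.53 and -1.49) with both diols. It was higher with 1,5-naphthalenediol by 0.46 ± 0.0517 (limma adjusted p = 0.000181). The repressor Nr1d1 was lower, at -0.56 ± 0.0923 (limma adjusted p = 0.00209). Among 25 acute phase and cytokine genes 2 were higher and 6 lower (median -0.02), with 1 higher without 1,5-naphthalenediol 2 or any single 2,7-naphthalenediol array. The neutrophil chemokine Cxcl1 read -1.74, -1.62 and -1.56 on the 1,5-naphthalenediol arrays, against -1.06, -0.98 and -0.98 on the 2,7-naphthalenediol arrays, with DMSO at -1.66, -1.45 and -1.49. It was lower with 1,5-naphthalenediol at -0.63 ± 0.0761 (limma adjusted p = 0.000323). Socs2, an inhibitor of growth hormone signalling, was lower, at -0.71 ± 0.0824, and the cytokine signalling inhibitor Socs3 higher by 0.45 ± 0.0457 (limma adjusted p = 0.000227 and 9.35e-05).

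Of 31 glycolysis, gluconeogenesis and hypoxia genes 2 were higher and 7 lower (median -0.05), and 4 lower without any single 2,7-naphthalenediol array. The higher count was 1 without 1,5-naphthalenediol 1 or 2 or 2,7-naphthalenediol 1 or 3. Of 36 PPAR-alpha and fatty acid oxidation genes 4 were higher and 6 lower (median -0.09), 27.8% called beside 14.7% of all genes. The liver hormone Fgf21 was lower, at -0.44 ± 0.0619, and the receptor gene Ppara higher by 0.43 ± 0.0759 (limma adjusted p = 0.000764 and 0.00324). Without 2,7-naphthalenediol 1 the counts were 2 and 2, without 2,7-naphthalenediol 2 they were 2 and 3, and the higher count was also 2 without 1,5-naphthalenediol 2 or 2,7-naphthalenediol 3. Of 20 bile acid genes 5 were higher and 2 lower (median 0.02), with 3 and 1 without 1,5-naphthalenediol 1, 1 and 3 without 1,5-naphthalenediol 2, 2 and 1 without 1,5-naphthalenediol 3, 1 and 2 without 2,7-naphthalenediol 1, 2 and 0 without 2,7-naphthalenediol 2 and 2 and 2 without 2,7-naphthalenediol 3. Of 17 p53 targets 4 were lower (median -0.11), with 2 without 1,5-naphthalenediol 2 and 1 without 1,5-naphthalenediol 3 or any single 2,7-naphthalenediol array. Of 10 metallothionein, zinc and copper genes 3 were higher (median 0.05). Of 39 interferon-stimulated genes 1 was lower between the diols (median -0.12, 3 at an unadjusted p under 0.05), with 2 without 1,5-naphthalenediol 3 and 0 without any other single diol array. Against the shared DMSO arrays 28 of the 39 were lower with 1,5-naphthalenediol (median -0.88) and 19 with 2,7-naphthalenediol (median -0.74), and 0 were higher with either. DMSO 1 stood apart from the other DMSO arrays: it was the lowest of the 3 for 35 of the 39 genes. Ifit3, an antiviral gene, read -1.84, -1.93 and -1.33 with 1,5-naphthalenediol and -1.57, -1.80 and -1.84 with 2,7-naphthalenediol, against -1.48, 1.26 and 1.38 with DMSO, so DMSO 1 lay within the range of the diols. Without DMSO 1 the lower counts were 30 with 1,5-naphthalenediol and 24 with 2,7-naphthalenediol. With 1,5-naphthalenediol they were 17 without 1,5-naphthalenediol 2 or DMSO 2, and with 2,7-naphthalenediol 4 without 2,7-naphthalenediol 2 or 3 or DMSO 2 or 3.

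Tmem169 was called in opposite directions against the shared DMSO arrays, at 0.56 with 1,5-naphthalenediol and -0.36 with 2,7-naphthalenediol (limma adjusted p = 0.000153 and 0.00794). Tmem151a was higher than DMSO with 2,7-naphthalenediol by 0.60 (limma adjusted p = 0.013), and its value with 1,5-naphthalenediol was -0.18 (adjusted p = 0.312).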
